A study of Mus musculus with 5 samples.

Results

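Tcf7, Lef1, Satb1, Bach2, Foxo1, Foxp1, Myb, Dapl1, Igfbp4 and Actn1 are 10 mouse genes tied to the naive or stem-like state of T cells. They were selected by symbol from a table of 35275 genes. Each symbol had 1 row, and all 10 passed the filter on low values that left 13298 genes for testing. RNA came from T cells sorted from the spleens of 3 month old wild-type C57BL/6 mice, after an enrichment for CD8 cells. The libraries were 1 of CD8+ regulatory T cells (CD8 Treg), 2 of CD4+ regulatory T cells (CD4 Treg) and 2 of a population labelled CD49lo. CD49lo is taken as the effector-like CD8+ population of the series because it is the label that remains. No treatment or engineered allele is named, and the labels do not say which sort markers were used or whether replicates were separate mice. The p-values therefore measure the spread between these libraries, which may be technical, and each CD8 Treg value rests on n = 1.

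TCF1, the product of Tcf7, and its relative LEF1 are DNA-binding proteins of the HMG box family that work with beta-catenin or with Groucho/TLE corepressors. They are needed for T cell development in the thymus, stay high in naive and long-lived memory T cells, and fall as CD8 T cells become terminal effectors. FOXO1 is a forkhead factor that AKT signalling excludes from the nucleus, and it drives genes of lymph node homing and survival such as Il7r. FOXP1 holds naive T cells at rest, BACH2 represses effector genes, and SATB1 organises chromatin during T cell development. MYB is a factor of blood progenitors that also acts in memory CD8 T cells. Dapl1, Igfbp4 and Actn1 are transcripts commonly found high in naive T cells. IGFBP4 is a secreted protein that binds insulin-like growth factors, and ACTN1 cross-links actin.

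Upstream sequences were examined for the binding letters of the factors among these genes, since 7 of the 10 encode DNA-binding regulators. RefSeq starts (build GRCm38.p6) gave 20 windows of 250 bases before a transcription start, with at least 1 for each of the 10 genes. Both strands were searched for CTTTGA or CTTTGT (the TCF/LEF letters), GTAAACA (forkhead), CAACTG (MYB) and TGAGTCA or TGACTCA (BACH and AP-1). No 2 of these motifs contain each other. The 3 windows below are shown because they lie outside annotated exons of their gene and hold such letters, in capitals. The Lef1 window lies at chr3:131156044-131156293, plus strand, inside the gene body and in no annotated exon. The Bach2 window lies at chr4:32417185-32417434, plus strand, also inside the gene body and outside exons. The Dapl1 window lies at chr2:59484403-59484652, plus strand, directly before the annotated gene.
Lef1 (start 4 of 4): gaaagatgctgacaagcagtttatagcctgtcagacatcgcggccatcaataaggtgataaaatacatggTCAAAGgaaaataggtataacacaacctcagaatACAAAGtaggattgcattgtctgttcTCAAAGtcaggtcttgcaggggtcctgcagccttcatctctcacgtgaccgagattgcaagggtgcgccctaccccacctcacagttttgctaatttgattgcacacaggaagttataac
Bach2: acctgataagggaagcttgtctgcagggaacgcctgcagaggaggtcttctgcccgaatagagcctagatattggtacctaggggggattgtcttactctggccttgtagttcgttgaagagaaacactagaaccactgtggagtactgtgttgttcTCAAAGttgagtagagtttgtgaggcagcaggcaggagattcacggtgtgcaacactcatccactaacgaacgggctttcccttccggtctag
Dapl1: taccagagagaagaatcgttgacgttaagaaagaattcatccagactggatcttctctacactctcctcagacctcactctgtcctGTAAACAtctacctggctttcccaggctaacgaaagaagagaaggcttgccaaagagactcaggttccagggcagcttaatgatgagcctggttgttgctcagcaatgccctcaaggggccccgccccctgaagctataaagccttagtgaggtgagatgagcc
The Lef1 window held 3 TCF/LEF matches, which began 180, 146 and 120 bases before the start, all on the opposite strand of the gene. Bach2 had 1 TCF/LEF match 93 bases before its start, and Dapl1 had 1 forkhead match 164 bases before its start. TCF/LEF letters occurred in 6 of the 20 windows, belonging to Lef1, Satb1, Bach2 and Foxp1, against 27.6% of all 32851 windows in the table. The Satb1 windows among them overlap, share the same match and lie wholly in annotated exons. Forkhead letters occurred in 1 window (3.17% of all windows) and MYB letters in 2, both of Foxp1 (11.1%). BACH and AP-1 letters occurred in 0 of the 20 windows (4.46% of all windows). Neither Tcf7 window held any of the letters searched, but 1 of them includes 67 bases of annotated exon and the other may hold coding sequence, so they may not be the region before the start of its transcripts. A match describes letters only, and an absent match concerns this window only.

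Recovered depth ran from 5441444 to 8354971 reads in genes per library. Cd8a followed the lineage labels. It stood at 187 RPKM (a read count divided by gene length and by library size) in CD8 Treg, 0.382 ± 0.0423 in CD4 Treg and 235 ± 28.04 in CD49lo (SD, n = 2 here and for all CD4 Treg and CD49lo means). Foxp3, the factor of classical regulatory T cells, stood at 0.387 RPKM in CD8 Treg, 146 ± 0.405 in CD4 Treg and 1.23 ± 0.608 in CD49lo, so the CD8 Treg label rests on other markers. Of genes for CD49 chains, Itga4 stood at 20.2 RPKM in CD8 Treg, 49.1 ± 5.91 in CD4 Treg and 150 ± 1.94 in CD49lo. Itga1 stood at 0.605, 0.0288 ± 0.00267 and 6.59 ± 3.92 RPKM in that order, and Itga2 at 3.09, 0.617 ± 0.318 and 2.09 ± 0.827. None of these was lowest in CD49lo, and the labels do not say which chain is meant. Transcripts of genes used as markers of other cells were present in unequal amounts. Summed over 14 B cell genes in RPM, which divides by library size only, CD8 Treg held 1549, the CD4 Treg libraries 743 and 845, and the CD49lo libraries 3129 and 3113. For 8 NK cell genes the sums were 483 in CD8 Treg, 13.2 and 9.92 in CD4 Treg, and 409 and 791 in CD49lo, and Ncr1, a defining NK gene, had 0 reads in both CD4 Treg libraries. The NK cell genes include Eomes, which is also on the list of stem-like T cell genes below. Eomes stood at 82.4 RPKM in CD8 Treg and at 57.0 and 55.2 in CD49lo. The NK sums may therefore include transcripts of the sorted T cells, and the share was not tested. The 9 myeloid genes summed to 364 in CD8 Treg, 88.3 and 61.7 in CD4 Treg, and 814 and 819 in CD49lo. The X-linked Xist stood at 0.0834 RPKM in CD8 Treg, 35.5 and 27.2 in CD4 Treg, and 0.0269 and 0 in CD49lo, so sex and the CD4 Treg group cannot be told apart. Ribosomal protein genes (84) took 14.7% of the reads of CD8 Treg, 10.9% and 10.5% of those of CD4 Treg, and 9.72% and 9.86% of those of CD49lo.

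All 10 genes were expressed in every library, and Tcf7 was the highest of them throughout. Tcf7 lay above 99.2% of tested genes in CD8 Treg, above 98.6% and 98.8% in CD4 Treg, and above 98.9% and 98.6% in CD49lo. In RPKM, a level per length that allows genes to be set beside each other, the order in CD8 Treg was Tcf7, Lef1, Satb1, Actn1, Dapl1, Foxp1, Foxo1, Myb, Igfbp4 and Bach2. In CD4 Treg it was Tcf7, Lef1, Actn1, Foxo1, Satb1, Foxp1, Igfbp4, Bach2, Dapl1 and Myb, and the libraries of only the last neighbours, Dapl1 and Myb, overlapped. In CD49lo it was Tcf7, Dapl1, Lef1, Actn1, Satb1, Foxp1, Myb, Foxo1, Igfbp4 and Bach2. There the neighbours Lef1 and Actn1, Satb1 and Foxp1, Myb and Foxo1, and Foxo1 and Igfbp4 overlapped. The rank of Dapl1 thus ran from the second place in CD49lo to the ninth in CD4 Treg.

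**Figure D1:**
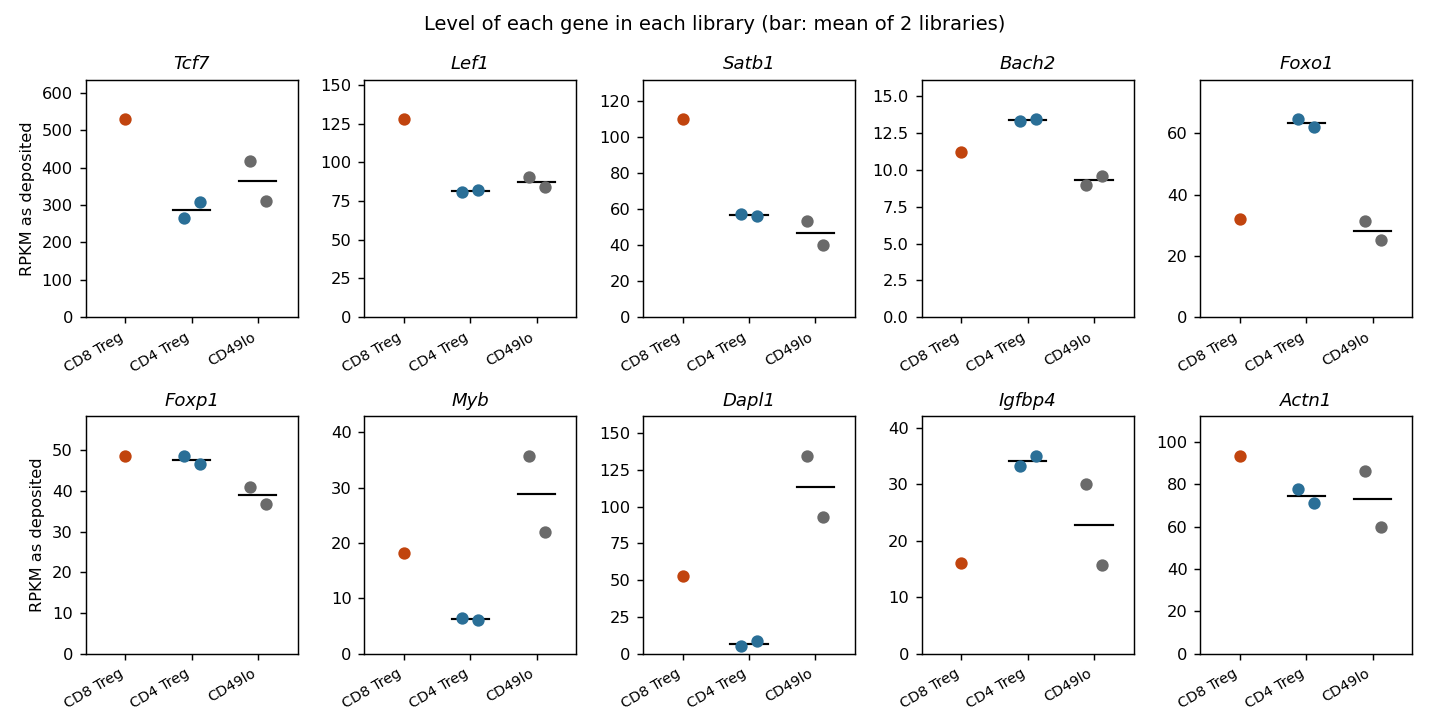
RPKM as deposited (vertical axis, from 0, a separate scale per gene) of each of the 10 genes in the CD8 Treg, CD4 Treg and CD49lo libraries; points are libraries and the bar is the mean of 2. Tcf7, Lef1 and Satb1 have their highest point in CD8 Treg, Foxo1 in CD4 Treg, and Myb and Dapl1 in CD49lo.

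The CD8 Treg library was first set against CD4 Treg, which asks how regulatory T cells of the CD8 and CD4 lineages differ. Of the 10 genes 6 changed: Tcf7, Lef1, Satb1, Myb and Dapl1 were higher in CD8 Treg and Foxo1 was lower. Among all genes tested, 16.9% changed in this comparison, 8.51% higher and 8.35% lower. Fold changes are log2 ratios of RPKM + 0.5 after scaling, ± SE, and a gene counts as changed at an adjusted p under 0.05 in limma. The median log2 fold change of the 10 genes was 0.59, against 0.02 over all genes tested. After scaling, CD8 Treg lay outside the CD4 Treg libraries for all 10 genes, called or not. Lack of overlap therefore does not set the called genes apart. With a filter at 1 RPKM, 4 of the 10 genes and 1672 of all genes were called, and Tcf7 and Myb were not.

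Tcf7 (ENSMUSG00000000782, mm10 chromosome 11, 52252371 to 52283014, minus strand) had 529 RPKM in CD8 Treg, while its CD4 Treg values were 265 and 307 RPKM. CD8 Treg lay above both of those, and the log2 fold change was 0.998 ± 0.182 (adjusted p = 0.00515). Lef1 (ENSMUSG00000027985, chromosome 3, 131110471 to 131224356, plus strand) was at 128 RPKM in CD8 Treg and at 80.7 and 82.4 RPKM in CD4 Treg. Its CD4 Treg libraries lay close together and below CD8 Treg (0.75 ± 0.13, adjusted p = 0.00325). Satb1 (ENSMUSG00000023927, chromosome 17, 51736187 to 51833290, minus strand), the chromatin organiser, was at 110 RPKM in CD8 Treg and at 57.1 and 56.0 RPKM in CD4 Treg. Its difference of 1.06 ± 0.17 (adjusted p = 0.00292) was again without overlap.

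Foxo1 (ENSMUSG00000044167, chromosome 3, 52268337 to 52350109, plus strand) went the other way, with 31.9 RPKM in CD8 Treg against 64.6 and 62.1 RPKM in CD4 Treg. It fell by 0.87 on the log2 scale (SE 0.16, adjusted p = 0.00541), and the groups did not overlap. The other forkhead gene, Foxp1 (ENSMUSG00000030067, chromosome 6, 98925338 to 99522721, minus strand), was at 48.5 RPKM in CD8 Treg and at 48.6 and 46.6 RPKM in CD4 Treg. Its log2 fold change of 0.13 did not pass the test (95% interval -0.16 to 0.43, adjusted p = 0.549). Bach2 (ENSMUSG00000040270, chromosome 4, 32238804 to 32586108, plus strand) was at 11.2 RPKM in CD8 Treg and at 13.3 and 13.4 RPKM in CD4 Treg. It did not pass either (-0.14, 95% interval -0.48 to 0.19, adjusted p = 0.572).

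The largest fold changes were those of Dapl1 and Myb. Dapl1 (ENSMUSG00000026989, chromosome 2, 59484653 to 59505020, plus strand) was at 53.1 RPKM in CD8 Treg and at 5.11 and 8.87 RPKM in CD4 Treg, where it rested on 21 and 32 reads. The CD8 Treg value was 7.97-fold higher (log2 2.99 ± 0.37, adjusted p = 0.000583). Myb (ENSMUSG00000019982, chromosome 10, 21124936 to 21160905, minus strand) was at 18.2 RPKM in CD8 Treg and at 6.55 and 6.07 RPKM in CD4 Treg. It was 2.95-fold higher in CD8 Treg (log2 1.56 ± 0.27, adjusted p = 0.00432), above both CD4 Treg libraries. Genes of progenitors and dividing cells, which also hold Myb, summed to 173 RPM in CD8 Treg and to 72.4 and 76.5 in CD4 Treg, and their part in the result was not tested.

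Igfbp4 (ENSMUSG00000017493, chromosome 11, 99041244 to 99054392, plus strand) was at 16.1 RPKM in CD8 Treg, below the 33.2 and 35.0 RPKM of CD4 Treg. The difference did not pass the test (-0.96 ± 0.31, adjusted p = 0.0658), though it did by limma-voom (adjusted p = 0.0326) and without scaling (adjusted p = 0.0391). Actn1 (ENSMUSG00000015143, chromosome 12, 80167542 to 80260371, minus strand) was at 93.3 RPKM in CD8 Treg and at 77.7 and 71.3 RPKM in CD4 Treg (0.43 ± 0.20, adjusted p = 0.196). B cell genes (13 of 14 higher in CD8 Treg, 0 lower), NK cell genes (7 of 8 higher, 1 lower) and myeloid genes (8 of 9 higher, 1 lower) moved with this comparison, and their part in it was not tested. In bulk RNA, fewer cells of a type and less RNA per cell cannot be told apart. Satb1 and Dapl1 were still called when CD4 Treg replicate 1 was left out and Dapl1 when CD4 Treg replicate 2 was, but 0 of the 6 when either CD49lo library was (8 of the 10 genes at an unadjusted p under 0.05 each time), in fits that keep 1 residual degree of freedom in place of 2.

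**Figure D2:**
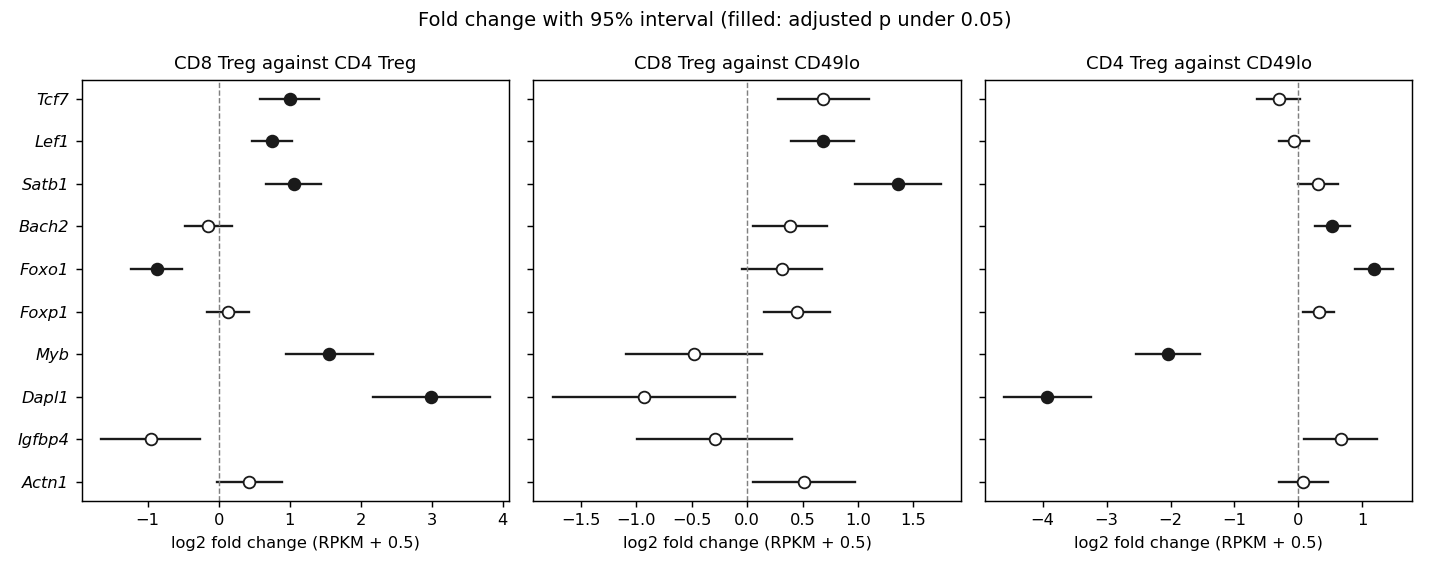
Log2 fold change of RPKM + 0.5 (horizontal axis) with its 95% interval for each gene in the 3 comparisons, filled where the adjusted p is under 0.05. Tcf7, Lef1 and Satb1 lie to the right of 0 in both CD8 Treg comparisons, while Myb and Dapl1 lie to the right against CD4 Treg and to the left against CD49lo.

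Against CD49lo, the effector-like CD8 population, 2 of the 10 genes changed in CD8 Treg: Satb1 and Lef1, both higher. Over all genes tested 5.30% changed, 1.71% higher and 3.59% lower in CD8 Treg. The median log2 fold change of the 10 genes was 0.42, against -0.04 over all genes tested. Satb1 was at 110 RPKM in CD8 Treg against 53.6 and 40.2 RPKM in the CD49lo libraries, a 2.58-fold difference (log2 1.37 ± 0.17, adjusted p = 0.00284). Lef1 was at 128 RPKM in CD8 Treg against 90.9 and 83.8 RPKM in CD49lo (0.68 ± 0.13, adjusted p = 0.0150). For both genes CD8 Treg lay above both CD49lo libraries.

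Tcf7 had 529 RPKM in CD8 Treg against 418 and 310 RPKM in CD49lo. Its log2 fold change of 0.69 ± 0.18 was close to that of Lef1, but the CD49lo libraries differed more from each other and the gene did not pass the test (adjusted p = 0.0652; 0.00884 by limma-voom on recovered reads, and 0.00884 to 0.357 over all alternatives). Foxp1 was at 48.5 RPKM in CD8 Treg against 40.9 and 36.9 RPKM in CD49lo (0.45 ± 0.13, adjusted p = 0.0898). Bach2 was at 11.2 RPKM in CD8 Treg against 8.99 and 9.62 RPKM in CD49lo (0.38 ± 0.15, adjusted p = 0.196). Neither passed the test, although CD8 Treg lay above both CD49lo libraries each time. Such a position carries little weight, since after scaling CD8 Treg lay outside the CD49lo libraries for 9 of the 10 genes, called or not. The share over all genes tested is not given here. Foxo1 was at 31.9 RPKM in CD8 Treg against 31.3 and 25.2 RPKM in CD49lo (0.31 ± 0.16, adjusted p = 0.331), and Actn1 at 93.3 RPKM against 86.3 and 59.6 RPKM (0.51 ± 0.20, adjusted p = 0.211).

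The other 3 genes had lower mean levels in CD8 Treg than in CD49lo, and none of these passed the test. Dapl1 was at 53.1 RPKM in CD8 Treg against 134 and 92.8 RPKM in CD49lo (-0.93, 95% interval -1.76 to -0.11, adjusted p = 0.203). Myb was at 18.2 RPKM in CD8 Treg against 35.7 and 22.0 RPKM in CD49lo (-0.48, 95% interval -1.10 to 0.14, adjusted p = 0.388). Igfbp4 was at 16.1 RPKM in CD8 Treg, between the 30.02 and 15.7 RPKM of the CD49lo libraries (-0.30, adjusted p = 0.671). Dapl1 and Myb lay below both CD49lo libraries. Genes of progenitors and dividing cells summed to 173 RPM in CD8 Treg against 1056 and 690 in CD49lo, and 4 of the 5 tested were lower in CD8 Treg; their part in the level of Myb was not tested. Of the B cell genes 3 of 14 were lower in CD8 Treg, of the myeloid genes 3 of 9, and of the NK cell genes 0 of 8 (4 at an unadjusted p under 0.05 in limma, 4 by limma-voom), with 0 higher in each list, and their part was not tested either.

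The Satb1 and Lef1 calls in this comparison were sensitive to which libraries set the spread. Satb1 was still called when CD4 Treg replicate 1, which is in neither group, was left out. Limma called 0 of the 10 genes when CD4 Treg replicate 2, CD49lo replicate 1 or CD49lo replicate 2 was left out (unadjusted p under 0.05 for 5, 7 and 6 genes). In these fits and all other alternatives the log2 fold change stayed between 1.14 and 1.59 for Satb1 and between 0.55 and 0.76 for Lef1.

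CD4 Treg were then set against CD49lo, the only comparison with 2 libraries on each side. Of the 10 genes 4 changed: Foxo1 and Bach2 were higher and Dapl1 and Myb lower in CD4 Treg. Over all genes tested 22.3% changed, 9.45% higher and 12.8% lower, and whether 4 in 10 differs from that share was not tested. Dapl1 was at 5.11 and 8.87 RPKM in CD4 Treg against 134 and 92.8 RPKM in CD49lo, with no overlap and a 15.2-fold lower level in CD4 Treg (log2 -3.93 ± 0.30, adjusted p = 2.42e-05). Myb was at 6.55 and 6.07 RPKM in CD4 Treg against 35.7 and 22.0 RPKM in CD49lo, 4.11-fold lower in CD4 Treg (-2.04 ± 0.22, adjusted p = 0.000196). Genes of progenitors and dividing cells summed to 72.4 and 76.5 RPM in CD4 Treg against 1056 and 690 in CD49lo, and their part in the level of Myb was not tested.

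Foxo1 was at 64.6 and 62.1 RPKM in CD4 Treg against 31.3 and 25.2 RPKM in CD49lo (1.19 ± 0.13, adjusted p = 0.000201). Bach2 was at 13.3 and 13.4 RPKM in CD4 Treg against 8.99 and 9.62 RPKM in CD49lo (0.53 ± 0.12, adjusted p = 0.0122). Neither gene's groups overlapped, but after scaling this held for 7 of the 10 genes, including some that did not pass the test. B cells also express Foxo1 and Bach2, and their 14 marker genes were lower in CD4 Treg in 13 cases and higher in 0. Of the NK cell genes 7 of 8 were lower and 1 higher in CD4 Treg, and of the myeloid genes 8 of 9 lower and 0 higher; their part in the 4 calls was not tested.

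Tcf7 and Lef1 did not separate CD4 Treg from CD49lo. Tcf7 was at 265 and 307 RPKM in CD4 Treg, and at 418 and 310 RPKM in CD49lo (-0.31, 95% interval -0.64 to 0.02, adjusted p = 0.179), and the libraries overlapped after scaling. Lef1 was at 80.7 and 82.4 RPKM in CD4 Treg and at 90.9 and 83.8 RPKM in CD49lo, a log2 fold change of -0.07 with a 95% interval of -0.30 to 0.16 (adjusted p = 0.676). The interval does not reach the 0.53 of Bach2 in either direction. Satb1 (0.31 ± 0.14, adjusted p = 0.162), Foxp1 (0.32 ± 0.11, adjusted p = 0.0643), Igfbp4 (0.66 ± 0.25, adjusted p = 0.0957) and Actn1 (0.08 ± 0.17, adjusted p = 0.788) did not pass the test. Igfbp4 was called by limma-voom (adjusted p = 0.0343) and had a log2 fold change of 1.13 without CD49lo replicate 1 and of 0.19 without CD49lo replicate 2, and Foxp1 was also called by limma-voom (adjusted p = 0.0490). With either CD4 Treg library left out, Foxo1, Myb and Dapl1 were still called. Foxo1 alone was called when CD49lo replicate 1 was left out and Myb alone when CD49lo replicate 2 was, while Bach2 was called in none of these fits.

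The plot of the CD49lo libraries sets them against each other. After scaling, 9 of the 10 genes were higher in replicate 1, and for those 9 the 95% exact Clopper-Pearson interval of the ratio, which covers counting error only, lay above 1. The ratio of replicate 1 to replicate 2 was 1.95 for Igfbp4, 1.66 for Myb, 1.48 for Dapl1, 1.48 for Actn1, 1.38 for Tcf7 and 1.36 for Satb1. Bach2 had a ratio of 0.955 (interval 0.852 to 1.07). Over 8082 genes with at least 200 reads in both libraries together, this interval lay above 1 for 26.6% and below 1 for 23.3%, so a ratio beyond counting error was common. The 5th to 95th percentile of the ratio over these genes was 0.685 to 1.44, and 4 of the 10 genes (Igfbp4, Myb, Dapl1 and Actn1) lay above it and 6 inside it. The median ratio was 1.37 for the 10 genes and 1.01 for the 8082. In the CD4 Treg libraries the interval held 1 for 8 of the 10 genes. It lay below 1 for Tcf7 (ratio 0.867) and above 1 for Actn1 (1.10). Among the 8 was Dapl1 (ratio 0.579, wide interval of 0.318 to 1.04), whose 21 and 32 reads fall short of 200. The interval held 1 for 64.6% of the 7132 genes with at least 200 reads in CD4 Treg, and for 50.1% of the 8082 in CD49lo.

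Effector genes ran the other way between the same libraries. Of 14 genes on a list of effector factors and products, 12 were lower in CD49lo replicate 1, with a median ratio of 0.58. Gzma, a granule protease, stood at 304 RPKM in replicate 1 and 1580 in replicate 2 (ratio 0.197), and Klrg1, a receptor of terminal effectors, at 34.5 and 141 RPKM (ratio 0.2504). Tbx21, which encodes the effector factor T-bet, had a ratio of 0.624. The 5 genes of progenitors and dividing cells were all higher in replicate 1 (median ratio 1.44), and the NK cell genes were lower in 6 of 7 (median ratio 0.643). These ratios compare 2 libraries and carry no test, and what differed between the sorts behind them is not given in the labels.

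**Figure D3:**
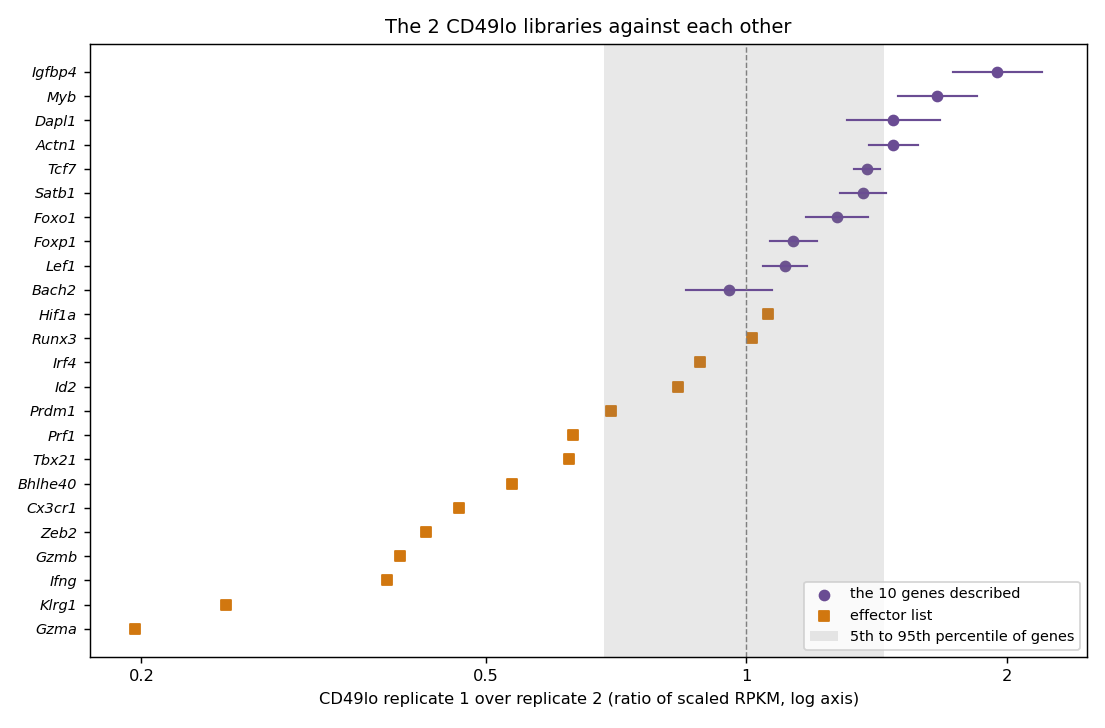
Ratio of CD49lo replicate 1 to replicate 2 after scaling (horizontal log axis) for the 10 genes, with 95% counting intervals, and for 14 effector genes; the grey band spans the 5th to 95th percentile of genes with at least 200 reads. Of the 10 genes 9 lie right of 1 and 12 of the 14 effector genes left of it.

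Genes that FOXO1 is known to drive, or that serve homing and survival of naive T cells, followed no single order of the groups. Against CD4 Treg, 4 of 12 were higher and 3 lower in CD8 Treg, with a median log2 fold change of 0.10 against 0.02 over all genes. Il7r, the interleukin 7 receptor, was at 133 RPKM in CD8 Treg and 45.1 and 52.9 RPKM in CD4 Treg (1.55 ± 0.14, adjusted p = 0.000120), although Foxo1 was lower there. The antiapoptotic Bcl2 was also higher (0.95 ± 0.13, adjusted p = 0.00130), while the stress gene Sesn1 (-1.51 ± 0.16) and the antiproliferative Btg1 (-0.91 ± 0.11) were lower. Against CD49lo, 5 of 12 were higher in CD8 Treg and 0 lower (1.71% and 3.59% of all genes tested). The median was 0.57, against -0.04 over all genes. Bcl2 was at 44.9 RPKM in CD8 Treg and 14.6 and 15.4 RPKM in CD49lo (1.69 ± 0.13, adjusted p = 0.000397). In CD4 Treg, 8 of 12 were higher than in CD49lo and 2 lower (9.45% and 12.8% of all genes tested). The median was 0.70, against -0.03 over all genes. Il6ra (1.48 ± 0.18) and Sesn1 (1.54 ± 0.13) were higher in CD4 Treg than in CD49lo, and Il7r (-0.43 ± 0.12) and Klf2 (-0.38 ± 0.10) were lower.

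Of 18 cofactors and pathway genes of TCF1 and LEF1 16 were tested. Against CD4 Treg 1 was higher in CD8 Treg and 0 lower, and the 1 was Tle4, a corepressor that binds TCF1 and LEF1. Of all genes tested 16.9% changed there, and 5.30% in CD8 Treg against CD49lo. Tle4 was at 31.4 RPKM in CD8 Treg and 15.9 and 15.2 RPKM in CD4 Treg (1.10 ± 0.15, adjusted p = 0.00109). Against CD49lo, limma called 0 of the 16 in CD8 Treg (5 at an unadjusted p under 0.05, and 1 by limma-voom). CD4 Treg had 2 higher and 3 lower of the 16 than CD49lo, where 22.3% of all genes tested changed, among them Axin2, a target and inhibitor of the Wnt pathway (0.49 ± 0.15), Aes (0.38 ± 0.10) and Tle4 (-0.61 ± 0.12). Beta-catenin itself, Ctnnb1, was at 48.3 RPKM in CD8 Treg, 60.7 ± 3.77 in CD4 Treg and 55.9 ± 0.612 in CD49lo, and passed the test in no comparison.

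Most effector factors and products, some of them held down by TCF1 or BACH2, were lower than in CD49lo in both regulatory populations. In CD8 Treg, 10 of 14 were lower than in CD49lo and 0 higher (median -1.90 against -0.04). Of all genes tested 3.59% were lower and 1.71% higher. Klrg1 was at 0.582 RPKM in CD8 Treg against 34.5 and 141 RPKM in CD49lo (-5.93 ± 0.63, adjusted p = 0.00125), and the protease Gzmb was lower by -4.47 ± 0.45. In CD4 Treg, 10 of 14 were lower than in CD49lo and 1 higher, against 12.8% and 9.45% of all genes tested. The 1 higher was Hif1a (1.35 ± 0.11). Gzma (-8.83 ± 0.61) and Cx3cr1 (-6.27 ± 0.37) were lower. Set against CD4 Treg, CD8 Treg had 7 of the 14 up and 5 down, against 8.51% and 8.35% of all genes tested. Tbx21 was at 64.3 RPKM in CD8 Treg and 2.20 and 1.99 RPKM in CD4 Treg (4.75 ± 0.27, adjusted p = 9.00e-06), so the library with the most Tcf7 transcript also held Tbx21 transcript. Prdm1, the effector factor BLIMP1 that BACH2 represses, was at 1.96 RPKM in CD8 Treg, 8.41 ± 0.065 in CD4 Treg and 6.23 ± 1.67 in CD49lo. It was lower in CD8 Treg than in CD4 Treg (-1.77 ± 0.26, adjusted p = 0.00169) and than in CD49lo (-1.32 ± 0.26, adjusted p = 0.0205).

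**Figure D4:**
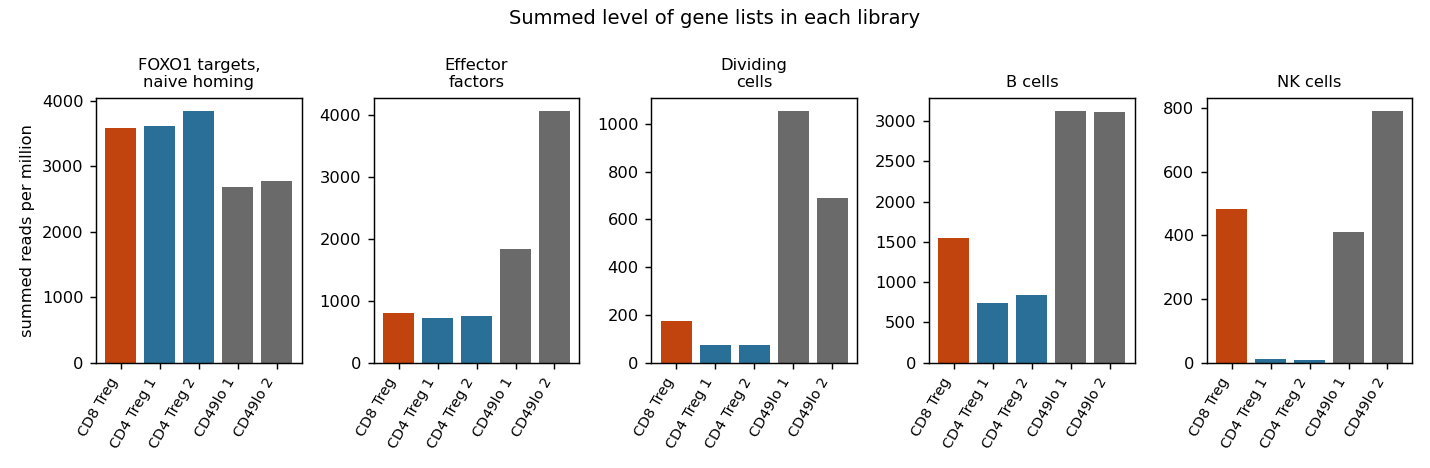
Summed RPM (vertical axis, from 0, a separate scale per list) of 5 gene lists in each library, with CD8 Treg, CD4 Treg and CD49lo in colour. The effector list sums to 807 in CD8 Treg, to 720 and 758 in CD4 Treg, and to 1833 and 4077 in CD49lo. Different genes make up these sums. Hif1a had the most reads of the list in CD4 Treg (2358 and 2339) and 497 in CD8 Treg, while Tbx21 had 34 and 27 against 972.

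Other genes listed as high in naive T cells, and genes listed as stem-like, split between the groups. Such genes can also mark other T cell states, and which state a difference reflects was not tested. Of 15 further naive T cell genes, 1 was higher and 7 lower in CD8 Treg relative to CD4 Treg (median -0.48 against 0.02). Over all genes tested the shares were 8.51% and 8.35%. The kinase gene Txk was the 1 that was higher (1.76 ± 0.17), and Tox2 (-3.27 ± 0.43) and Ly6c1 (-3.71 ± 0.92) were lower. Txk and the neuronal vesicle gene Nsg2 were higher in CD8 Treg than in CD49lo (1.46 ± 0.17 and 1.58 ± 0.24). Ccr9 (-2.02 ± 0.36) and Ifngr2 (-1.11 ± 0.25) were lower. That made 2 higher and 2 lower of 15, against 1.71% and 3.59% of all genes tested. CD4 Treg had 7 of the 15 higher and 0 lower than CD49lo, against 9.45% and 12.8% of all genes tested. Trib2 (1.96 ± 0.16) was among those higher. Of 13 stem-like and memory precursor genes, CD8 Treg had 4 at a higher and 7 at a lower level than CD4 Treg. The shares of all genes tested were again 8.51% and 8.35%. The T-box factor Eomes was at 82.4 RPKM in CD8 Treg and 1.18 and 0.929 RPKM in CD4 Treg (5.85 ± 0.20), the chemokine Xcl1 was higher (6.05 ± 0.65), and Nt5e, which encodes CD73, was lower (-2.07 ± 0.17). Against CD49lo 2 of the 13 were higher in CD8 Treg, Socs3 (0.97 ± 0.16) and Cxcr5 (0.69 ± 0.16), and 0 lower. Over all genes tested those shares were 1.71% and 3.59%. CD4 Treg had 7 of the 13 higher and 4 lower than CD49lo, against 9.45% and 12.8% of all genes tested. Nt5e (2.54 ± 0.14) and Socs3 (2.13 ± 0.13) were among those higher, and Eomes (-5.16 ± 0.16) and Xcl1 (-4.72 ± 0.53) among those lower. Every fold change in this paragraph has an adjusted p of at most 0.0404, the value of Cxcr5.

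Of 16 relatives of the 10 genes 8 passed the filter on low values. Foxp4 was at 11.7 RPKM in CD8 Treg, 33.9 and 34.3 RPKM in CD4 Treg, and 23.0 RPKM in each CD49lo library. Unlike the Foxp1 values above, those of Foxp4 passed the test in all 3 comparisons: -1.40 ± 0.15 for CD8 Treg against CD4 Treg, -0.82 ± 0.15 for CD8 Treg against CD49lo and 0.58 ± 0.12 for CD4 Treg against CD49lo (adjusted p at most 0.0148). Foxo3 was higher in CD4 Treg than in CD49lo (0.66 ± 0.14, adjusted p = 0.00871), as Foxo1 was. Mybl2, a relative of Myb active in dividing cells, was lower in CD4 Treg than in CD49lo (-1.73 ± 0.38, adjusted p = 0.0103).

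Among the 10 genes, Tcf7 and Lef1 were nearest to each other in pattern, with a Euclidean distance of 0.37 between their centred log2 levels over the 5 libraries. Bach2 and Foxp1 (0.32) and Foxo1 and Igfbp4 (0.75) were also each other's nearest. Dapl1 had the widest range, 4.57 on the log2 scale, and Foxp1 the narrowest, 0.54. Among 7428 other genes with a mean of at least 5 RPKM, the 5 closest to Tcf7 were Gramd4, Rwdd2b, Txnrd1, Srpk2 and Rabggta, at distances of 0.18 to 0.23. The 5 closest to Lef1 were Gnl3, Rrp15, Rpsa, Gcsh and Nsa2, at 0.05 to 0.10. Rpsa encodes a ribosomal protein, and the share of reads in such genes was likewise highest in CD8 Treg, at 14.7%; its part in the Lef1 result was not tested. These distances describe 5 libraries and carry no test.

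Transcripts from genes that overlap the 10 genes were few. By the coordinates of the table, Tcf7, Myb, Foxp1, Bach2 and Foxo1 overlap 8 other annotated genes, and no strand setting is given in the sources used here. The highest of these was Gm26551, a noncoding gene on the strand of Tcf7, with at most 137 reads in a library, against at least 4060 reads for Tcf7. The antisense gene A630014C17Rik reached 32 reads.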

How the data were processed

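RNA sequencing values of 5 libraries were used, from 1 table of 35275 genes. CASAVA, STAR and mm10 are listed, with no version, per the submitters' processing notes; the counting tool is not given in the sources used here. The values deposited by the authors are RPKM, although the table is called counts. Multiplying by gene length gave whole reads for 100% of values (within 0.02). Libraries were scaled with TMM factors (0.935 for CD8 Treg, 1.00 to 1.04 for the others), and log2(RPKM + 0.5) was fitted in limma 3.58.1 (R 4.3.3) over 3 groups with 2 residual degrees of freedom, which takes the spread of CD8 Treg from the other groups. The variance prior followed mean log2 RPM. Tested genes had 15 reads in total and, in 1 library or more, 10 reads once scaled to median depth. P-values are two-sided and Benjamini-Hochberg adjusted over the 13298 genes tested. The fit was tested on simulated data. Same-numbered libraries did not deviate together (r = -0.02 across genes), so numbers were not used as pairs. Of the 10 genes 10 matched GENCODE M21 by chromosome and strand and 7 by start and end.

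The members and lists were chosen with earlier results of these data known. Besides the 10 genes, the 2 largest and 2 smallest changed genes per list and comparison are named if the higher group averaged at least 10 RPM, with the nearest genes of Tcf7 and Lef1; Ctnnb1 and Prdm1 were named after their values were seen, as were Gzma, Klrg1 and Tbx21 between the CD49lo libraries. Some genes are in several lists. A gene that the rule names is not reported here. A symbol with 2 identifiers was counted once, by the identifier with more reads. Alternatives were other pseudocounts (0.1 and 1), no scaling, other filters, another prior, limma-voom, each library left out, 4 libraries alone and a replicate block.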

Additional observations from a re-analysis of the deposited data

How the results depend on the processing

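Over 350 refits of single fold changes of the 10 genes, 284 kept direction and side of the threshold, 54 lost their call, 9 gained one and 3 changed sign. Only the 6, 2 and 4 genes called in the 3 comparisons above could lose a call, so the 54 concern these alone. Other filters, another prior, 4 libraries alone and the replicate block cannot move a fold change. Nor can leaving out a library that is in neither group. Direction was fixed in advance in those refits. The sign changes were Lef1 in CD4 Treg against CD49lo without CD49lo replicate 1 (0.00266; lowest -0.14 over libraries left out), Actn1 in that comparison without CD49lo replicate 2 (-0.20; highest 0.36) and Igfbp4 in CD8 Treg against CD49lo without CD49lo replicate 1 (0.17; lowest -0.77). None of the 3 was called. Pseudocounts of 0.1 and 1 moved no call. With no filter, limma called 0 of the 10 genes in each comparison (unadjusted p under 0.05 for 6, 4 and 5, for CD8 Treg against CD4 Treg, CD8 Treg against CD49lo and CD4 Treg against CD49lo); all genes called were then 1277, 580 and 704, against 2241, 705 and 2964, and the cause was not tested. On the filtered genes, limma-voom called 7, 3 and 6 of the 10. For CD8 Treg against CD49lo, a filter at 1 RPKM left 0 of the 10 (5 at an unadjusted p under 0.05) and 355 of all genes, and a prior that follows RPKM left 1 of the 10 and 365 of all genes. Leaving out 1 library gave 0 to 2, 0 to 1 and 1 to 3 of the 10 in that order, and 160 to 967, 0 to 200 and 438 to 1459 of all genes. The count of 0 among all genes came without CD49lo replicate 1 (2209 at an unadjusted p under 0.05). Omitting the scaling shifted the median log2 fold change of all genes by -0.12 in CD8 Treg against CD49lo. The share of calls that were higher there was 32.3%, against 20.6% without scaling, 50.8% by limma-voom, 50.7% with the 1 RPKM filter and 85.2% without a filter; for CD8 Treg against CD4 Treg it was 50.5%, against 69.1% without a filter. In CD4 Treg against CD49lo on 4 libraries, a replicate block raised the calls from 4 to 8 of the 10 genes and to 3587 of all genes, but the numbers do not pair the libraries. With 1 CD8 Treg library, no spread of that group was measured.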
